A study of Homo sapiens with 8 samples.

Results

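The IL-6 family is described here through 10 genes of SK-UT-1, a cell line established from a uterine leiomyosarcoma, a malignant smooth muscle tumour. The members are the ligand genes IL6, IL11, LIF and CLCF1, the receptor genes IL6R, IL6ST, LIFR and OSMR, the transcription factor gene STAT3 and the feedback inhibitor gene SOCS3. They were picked out of the table of counts by gene name, and each matched 1 of its 60282 genes. Cells were exposed for 48 h to 5 µM TP-472, a small-molecule inhibitor of the bromodomain proteins BRD9 and BRD7, or to the DMSO vehicle, and RNA was sequenced from 4 replicates of each group. All libraries come from this 1 line, grown with fetal bovine serum. The study's methods speak of biological replicates for its experiments in general, but the sample descriptions do not say that these were separate cultures, so p-values measure the spread between these libraries. RNA alone was measured, so secreted cytokine and phosphorylated STAT3 are not covered.

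IL-6 family cytokines signal through the shared receptor chain gp130, the product of IL6ST. IL-6 and IL-11 first bind their own receptor chains, whereas LIF and the CLCF1 product act through complexes that contain gp130 and the LIF receptor. The receptors activate JAK kinases, which phosphorylate STAT3, and STAT3 in turn induces SOCS3, an inhibitor of the same receptors. In many cancers this pathway is known for links to inflammation, growth and survival.

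Library totals ran from 32574716 to 36634184 estimated counts in the vehicle group and from 36246466 to 38545695 in the TP-472 group. Vehicle replicate 3 stood apart from the rest. Its median Spearman correlation across genes with its own group was 0.914, against 0.988 to 0.989 for the other vehicle libraries and 0.993 to 0.997 for the TP-472 libraries. Its deviation from the other vehicle libraries followed the GC content of the genes (Spearman correlation across genes 0.765, n = 1 library), so values of the family genes are given with and without it. Of 10 smooth muscle markers 7 passed the filter, with vehicle means of 200 CPM for CALD1, 160 for ACTA2, 81.5 for SMTN (158 in vehicle replicate 3), 32.3 for TAGLN, 3.25 for DES, 2.53 for LMOD1 and 1.26 for CNN1. MYH11, MYOCD and ACTG2 did not exceed 0.264 CPM in any library.

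Levels are given as CPM, in which each count is divided by the total of its library over the tested genes defined next. A TMM factor adjusts for differences in composition. For the filter itself, CPM were taken over the whole library total without that factor. The 14073 genes above 1 CPM in 4 or more libraries entered a quasi-likelihood F test in edgeR. A gene was called at an adjusted p-value under 0.05 with a change over 1.5-fold. Of the 10 members, 9 entered the test, and IL6 entered it only through the TP-472 libraries. IL6, LIF and IL6R were called higher after TP-472 treatment, none of the 9 was called lower, and 6 were not called. No member was lower at an unadjusted p-value under 0.05 either, and DESeq2 and limma-voom called none lower. Over all genes tested, 26.9% were called, 12.0% as higher and 14.9% as lower. The median log2 fold change of the 9 tested members was 0.43, beside −0.03 over all genes tested. In 5 of the 9 every TP-472 library lay above every vehicle library, which held for 23.8% of all tested genes, and 45.4% of all tested genes showed no overlap in either direction. In cultured cells sequenced in bulk, fewer cells with a transcript and less of it per cell cannot be told apart.

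**Figure D1:**
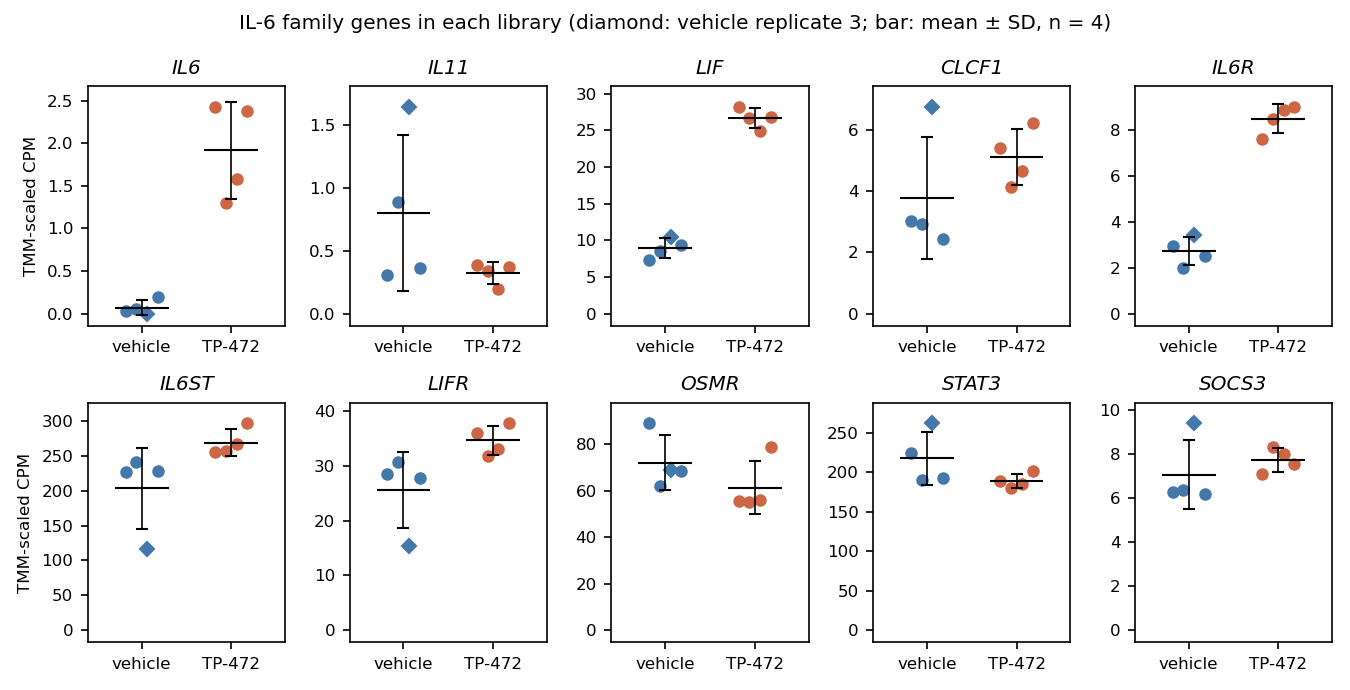
Level of each family gene in each library, in TMM-scaled CPM, with vehicle in blue and TP-472 in red; horizontal lines are means, error bars are SD (n = 4), and the diamond is vehicle replicate 3. The groups are apart for IL6, LIF, IL6R, IL6ST and LIFR, and the diamond is the lowest vehicle point for IL6, IL6ST and LIFR and the highest for IL11, LIF, CLCF1, IL6R, STAT3 and SOCS3.

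IL6 encodes the cytokine that gives the family its name, and lies at chr7:22725884-22732002 (plus strand, GRCh38, gene ENSG00000136244.12). The vehicle libraries, in order of replicate, had 1, 2, 0 and 7 counts, and the TP-472 libraries had 94, 46, 57 and 90. In CPM these are 0.0277, 0.0575, 0 and 0.197 in the vehicle libraries, and 2.43, 1.30, 1.58 and 2.38 in the TP-472 libraries. The transcript was thus close to absent in every vehicle library and low but present in every TP-472 library, with no overlap. Means were 0.0705 ± 0.0874 and 1.92 ± 0.570 CPM (SD, n = 4 each). The fitted log2 fold change was 4.70 (SE 0.58, 95% interval 3.38 to 6.02, edgeR adjusted p = 0.000683). With so few vehicle counts its size depends on the prior count of the model. Over the summed counts, 287 against 10, the ratio of scaled rates was 27.3, with a 95% interval of 14.7 to 57.6 that covers counting error only. Of the 10 vehicle counts 7 were in vehicle replicate 4, without which the ratio was 68.1 (95% interval 23.1 to 332) and the log2 fold change 5.92 (edgeR adjusted p = 0.000573). Leaving out vehicle replicate 3, which had no IL6 count, gave a log2 fold change of 4.31 (adjusted p = 7.3e-05). Over 17 alternative analyses it ran from 4.31 to 5.92, with adjusted p-values from 3.11e-13 to 0.0043. This and the ranges that follow leave out the test against a 1.5-fold change, which asks another question. In that test IL6, LIF and IL6R were called (edgeR adjusted p = 0.00177, 0.000721 and 0.00299), and the other 6 tested members had an adjusted p-value of 1. The gene overlaps STEAP1B and IL6-AS1 on the other strand, which stayed at means of at most 0.237 CPM in either group. The study's methods describe the libraries as strand-specific, while the sample labels name a different TruSeq kit. The strand setting of the counting is not given in the sources used here, so reads of opposite strands may not have been told apart.

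IL11 encodes a cytokine that also signals through gp130, and lies at chr19:55364389-55370463 (minus strand). Its vehicle libraries held 0.305, 0.891, 1.65 and 0.365 CPM, and its TP-472 libraries 0.388, 0.338, 0.194 and 0.370 CPM. Vehicle replicates 2 and 3 were the high libraries and the groups overlapped. IL11 was under the filter, and the exact two-sided permutation test over the 70 assignments of libraries gave p = 0.257, where the smallest possible value is 0.0286. With means of 0.803 ± 0.623 and 0.323 ± 0.0881 CPM (SD, n = 4 each), a difference was not detectable at this depth and spread. Leaving out vehicle replicate 3 brought the vehicle mean to 0.520 ± 0.322 CPM (SD, n = 3), and the exact permutation test over 35 assignments gave p = 0.343. Fits that included IL11 gave log2 fold changes of −1.30 with DESeq2 (adjusted p = 0.0732) and −1.29 with edgeR without a filter (adjusted p = 0.0912).

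The sequence before the RefSeq start of both cytokine genes is shown, since IL6 had the largest fold change of the members and IL11 was the ligand with the lower treated mean. Both are taken from RefSeq on GRCh38.p14 and read 5′ to 3′ on the gene's strand. For IL6 the stretch is chr7:22726950-22727146, which stops 54 bases before the RefSeq start at 22727200, since GENCODE 29 has an IL6 exon from 22727147. As GENCODE begins the gene further upstream, the stretch lies within the gene interval given above. Capitals mark the letters of a C/EBP motif (TTGCNNAA) at −155 to −148 and of the kappa B consensus, the NF-kB binding motif, at −73 to −64. For IL11 it is chr19:55370464-55370663, up to the base before the start, and capitals mark an AP-1 motif (TGANTCA) at −96 to −90.
IL6: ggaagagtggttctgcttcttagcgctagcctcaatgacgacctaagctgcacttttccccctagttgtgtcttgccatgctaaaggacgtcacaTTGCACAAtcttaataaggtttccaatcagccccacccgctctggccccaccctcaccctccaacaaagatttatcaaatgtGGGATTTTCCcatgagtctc
IL11: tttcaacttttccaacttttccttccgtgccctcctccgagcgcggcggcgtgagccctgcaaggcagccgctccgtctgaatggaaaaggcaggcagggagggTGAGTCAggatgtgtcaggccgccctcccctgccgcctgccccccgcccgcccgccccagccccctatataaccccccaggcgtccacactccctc

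Motifs were searched on both strands in 35116 RefSeq windows of 300 bases, from 250 before to 50 after a gene's start. A total of 8 members had 11 windows between them. LIF and CLCF1 had none in the table. C/EBP letters were in 10.5% of all windows and, among the members, in those of IL6, LIFR and OSMR. The kappa B consensus was in 11.3% of all windows and in those of IL6 and, on the opposite strand, IL6ST. AP-1 letters were in 7.71% of all windows and in those of IL11, IL6R and OSMR. The STAT motif (TTCNNNGAA) was in 7.66% of all windows and, among the members, was found for LIFR alone. The cyclic AMP response motif (TGACGTCA) was in 1.85% of all windows and in none of the members'. These matches describe letters, and no binding was measured.

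LIF encodes leukemia inhibitory factor (chr22:30240447-30246851). The vehicle libraries held 7.26, 8.59, 10.5 and 9.41 CPM, and the TP-472 libraries 28.2, 26.7, 24.9 and 26.8 CPM. Every treated library lay far above every vehicle library. Means were 8.94 ± 1.36 and 26.7 ± 1.35 CPM (SD, n = 4 each), and LIF rose 2.98-fold, with a log2 fold change of 1.58 (SE 0.14, 95% interval 1.27 to 1.88, edgeR adjusted p = 0.000119). Leaving out vehicle replicate 3 gave 1.66 (adjusted p = 2.35e-06), and over 18 alternatives it ran from 1.49 to 1.80, with adjusted p-values up to 0.00342. Of the 4 ligand genes among the members, LIF had the highest mean per kb of exon in both groups.

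CLCF1 encodes a cytokine of the CNTF and LIF branch (chr11:67364168-67374177). Vehicle replicates 1, 2 and 4 held 3.02, 2.90 and 2.44 CPM and vehicle replicate 3 held 6.75 CPM, while the TP-472 libraries held 5.41, 4.12, 4.63 and 6.21 CPM. All treated libraries thus lay above all vehicle libraries but replicate 3, which was the highest of the 8. With all libraries the log2 fold change was 0.43 (SE 0.32, 95% interval −0.30 to 1.16, edgeR adjusted p = 0.312) and CLCF1 was not called. In the fit without vehicle replicate 3 it was 0.87 (SE 0.17, adjusted p = 0.00194), past both thresholds, and over 17 alternatives the adjusted p-value ran from 0.00194 to 0.528. AP003419.1, annotated on the same strand over CLCF1, had no count in vehicle replicates 1, 2 and 4, 4.17 CPM in vehicle replicate 3, and 2.33, 2.001, 3.80 and 2.51 CPM in the TP-472 libraries. Like CLCF1 it was highest in vehicle replicate 3 (edgeR adjusted p = 0.424 with all libraries), and how reads were divided between these genes was not tested. RAD9A, on the opposite strand over CLCF1, had means of 13.6 and 11.3 CPM, with 20.7 CPM in vehicle replicate 3.

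IL6R encodes the receptor chain that binds IL-6 (chr1:154405193-154469450). The vehicle libraries held 2.96, 1.98, 3.44 and 2.53 CPM, and the TP-472 libraries 7.61, 8.51, 8.91 and 9.04 CPM. The groups were well apart, with means of 2.73 ± 0.623 and 8.52 ± 0.644 CPM (SD, n = 4 each). IL6R rose 3.12-fold, a log2 fold change of 1.64 (SE 0.19, 95% interval 1.22 to 2.06, edgeR adjusted p = 0.000428). It was 1.77 without vehicle replicate 3 (adjusted p = 1.42e-05) and between 1.51 and 1.77 over 18 alternatives, with adjusted p-values up to 0.00508.

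IL6ST, the gene of gp130 (chr5:55935095-55994993), held 226, 242, 116 and 228 CPM in the vehicle libraries and 255, 257, 267 and 297 CPM in the TP-472 libraries. LIFR, the gene of the LIF receptor (chr5:38474963-38608354), held 28.6, 30.7, 15.3 and 27.8 CPM in the vehicle libraries and 35.9, 31.8, 33.1 and 37.8 CPM in the TP-472 libraries. In both genes all treated libraries were above all vehicle libraries, and vehicle replicate 3 was far below the other vehicle libraries. The log2 fold change of IL6ST was 0.41 (SE 0.21, 95% interval −0.07 to 0.88, edgeR adjusted p = 0.159), and that of LIFR was 0.44 (SE 0.20, 95% interval −0.02 to 0.90, edgeR adjusted p = 0.121). Neither was called. When vehicle replicate 3 was left out the values were smaller with less error, 0.21 for IL6ST (adjusted p = 0.0268) and 0.26 for LIFR (adjusted p = 0.0187), both under the 1.5-fold limit. Over 18 alternatives the adjusted p-value ran from 0.0119 to 0.288 for IL6ST and from 0.00788 to 0.229 for LIFR. The exons of both genes are poor in GC, at 36.6% for IL6ST and 36.2% for LIFR.

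OSMR, the gene of the oncostatin M receptor chain (chr5:38845858-38945596), held 89.1, 62.0, 68.9 and 68.7 CPM in the vehicle libraries and 55.7, 55.2, 55.9 and 78.8 CPM in the TP-472 libraries. TP-472 replicates 1 to 3 lay under every vehicle library and TP-472 replicate 4 lay above 3 of the 4 vehicle libraries. The log2 fold change was −0.23 (SE 0.16, 95% interval −0.60 to 0.13, edgeR adjusted p = 0.277) and OSMR was not called. Leaving out TP-472 replicate 4 gave −0.38 (adjusted p = 0.0846), and over 18 alternatives the adjusted p-value ran from 0.0603 to 0.589. OSMR overlaps RICTOR, which lies on the other strand and had means of 44.7 and 37.9 CPM.

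STAT3 (chr17:42313324-42388568) held 225, 190, 262 and 193 CPM in the vehicle libraries and 189, 181, 185 and 202 CPM in the TP-472 libraries. The groups overlapped, and vehicle replicates 1 and 3 were the 2 highest libraries. The log2 fold change was −0.20 (SE 0.12, 95% interval −0.48 to 0.08, edgeR adjusted p = 0.225), so the interval excluded a rise or fall of 1.5-fold. Leaving out vehicle replicate 3 gave −0.10 (adjusted p = 0.286). Over 18 alternatives the adjusted p-value ran from 0.0504 to 0.384.

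SOCS3 (chr17:78356778-78360077) held 6.29, 6.38, 9.41 and 6.18 CPM in the vehicle libraries and 7.12, 8.34, 7.99 and 7.53 CPM in the TP-472 libraries. As for CLCF1, all treated libraries lay above vehicle replicates 1, 2 and 4 and below vehicle replicate 3. The log2 fold change was 0.13 (SE 0.17, 95% interval −0.25 to 0.51, edgeR adjusted p = 0.555). In the 7 libraries other than vehicle replicate 3 it was 0.30 (adjusted p = 0.0241), under the 1.5-fold limit, and over 18 alternatives the adjusted p-value ran from 0.00605 to 0.771. SOCS3 exons hold 60.0% GC.

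**Figure D2:**
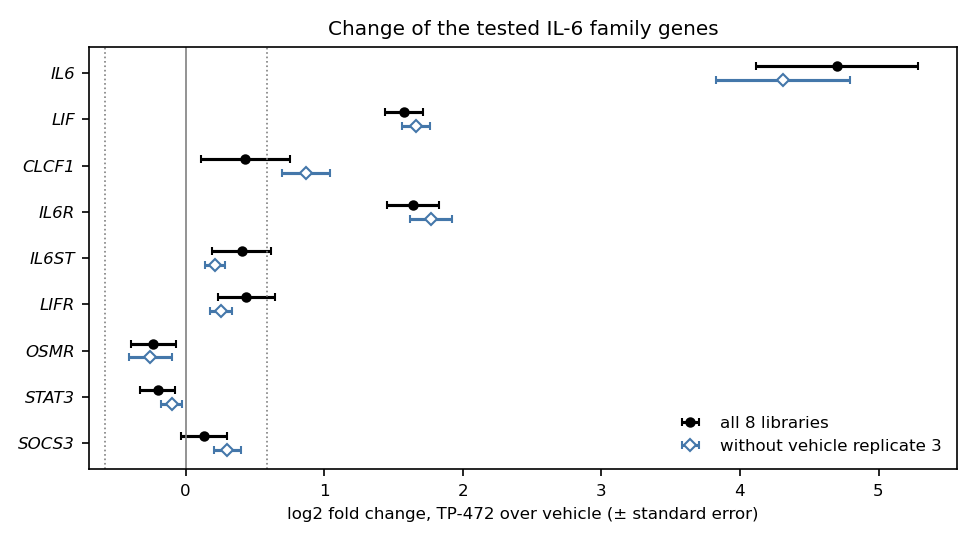
Log2 fold change of the 9 tested family genes, TP-472 over vehicle, with standard error, for all 8 libraries (black) and without vehicle replicate 3 (blue diamonds); dotted lines mark 1.5-fold. IL6, IL6R and LIF lie beyond the right line in both fits, and CLCF1 moves from 0.43 to 0.87.

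Levels of different genes were compared only per length, as CPM per kb of exon. In vehicle cells the order of the mean levels per kb began with STAT3 at 24.7 ± 3.83 and IL6ST at 21.9 ± 6.27, which overlapped, followed by OSMR at 10.1 ± 1.64 (SD, n = 4 each). SOCS3, LIF, LIFR and CLCF1 came next at 2.58, 2.25, 2.16 and 1.91 CPM per kb, with overlapping ranges. IL6R at 0.423 and IL11 at 0.301 CPM per kb also overlapped, and IL6 was last at 0.0341 CPM per kb. Among the members, transcripts of STAT3 and of the shared chain gp130 thus led in vehicle cells, while IL6 was the lowest ligand and IL6R the lowest receptor chain.

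In TP-472-treated cells IL6ST led at 28.97 ± 2.07 CPM per kb, above STAT3 at 21.5 ± 1.05 with no overlap of their libraries. OSMR followed at 8.56 and LIF at 6.72 CPM per kb, and the ranges of these neighbours did not overlap. LIFR, SOCS3 and CLCF1 lay at 2.92, 2.83 and 2.58 CPM per kb, with overlapping ranges. IL6R came to 1.32 ± 0.0998 and IL6 to 0.929 ± 0.276 CPM per kb, with IL6R at 1.18 in its lowest library and IL6 at 1.18 in its highest. IL11 was last at 0.121 CPM per kb. LIF thus moved past SOCS3, and IL6 past IL11. Per median length of coding transcripts the order of the middle genes differed. LIFR then came next after OSMR in both groups, and IL6R, at 7.17 in TP-472-treated cells, lay above SOCS3 at 5.01 and CLCF1 at 3.62 CPM per kb.

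**Figure D3:**
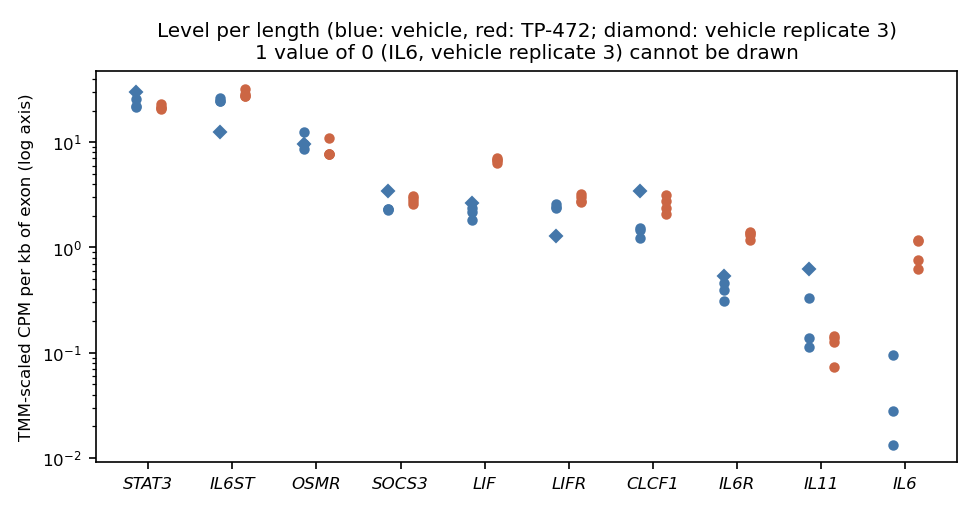
Level of each family gene per kb of exon in each library (log axis), ordered by the vehicle mean, with vehicle in blue, TP-472 in red and vehicle replicate 3 as a diamond; the 0 of IL6 in vehicle replicate 3 cannot be drawn. IL6 is the lowest gene in vehicle and lies above IL11 after TP-472 treatment, while STAT3, IL6ST and OSMR lead in both groups.

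Other genes of the pathway were taken from 7 lists of 86 genes, of which 66 passed the filter. Among these 66, 10 (15.2%) were called higher and 16 (24.2%) lower, beside 12.0% and 14.9% over all genes tested, with a median log2 fold change of −0.05, beside −0.03 over all genes tested. Without vehicle replicate 3 there were 16 higher and 9 lower. Of the called genes described next, CNTF, TYK2, SOS1, PIAS3, DUSP22, CEBPD, FOSL2, ICAM1, ZC3H12A and FURIN reached an adjusted p-value of 0.05 or more under at least 1 alternative other than the test against 1.5-fold. That test left 3 higher and 3 lower calls in the 7 lists.

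Of 7 further ligands and soluble partners, 2 passed the filter. CNTF, a neurotrophic cytokine of the family, rose from a mean of 1.78 to 3.41 CPM (log2 fold change 0.94, SE 0.25, edgeR adjusted p = 0.0180). The groups did not overlap. In the fit without vehicle replicate 3 the log2 fold change of CNTF was 0.78. OSM, the gene of oncostatin M, had no count in any vehicle library and at most 0.159 CPM in a TP-472 library, and IL27 had none in any library.

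All 4 further receptor chains passed the filter. IL31RA, a chain of the IL-31 receptor, rose from 1.13 to 2.20 CPM (log2 fold change 0.96, SE 0.19, edgeR adjusted p = 0.00493). IL11RA, which binds IL-11, fell from 8.29 to 4.56 CPM (log2 fold change −0.86, SE 0.20, adjusted p = 0.0117). Their values were 1.04 and −0.66 without vehicle replicate 3, and both were called. CNTFR and IL27RA were not called. The receptor chains of IL-6 and IL-11 therefore moved in opposite directions, IL6R by 1.64 and IL11RA by −0.86 on the log2 scale, each with no overlap between groups.

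Of 12 JAKs, other STATs and adaptors, all tested, none was called higher and 7 (58.3%) were called lower, where 14.9% of all tested genes were, with a median log2 fold change of −0.64. STAT5A, a transcription factor activated by several cytokine receptors, held 23.3, 21.2, 30.4 and 22.7 CPM in the vehicle libraries and 14.2, 13.2, 12.7 and 13.5 CPM in the TP-472 libraries. All treated libraries were below all vehicle libraries, and STAT5A fell by 0.87 on the log2 scale (SE 0.14, edgeR adjusted p = 0.00198). GAB2, an adaptor of the RAS and PI3K arms, fell by 0.86 (SE 0.13, adjusted p = 0.00176), and TYK2, a kinase of the JAK family, by 0.76 (SE 0.20, adjusted p = 0.0168). STAT5B, SHC1 and SOS1 were also called lower. The kinases JAK1 and JAK2 were not called, with log2 fold changes of −0.02 (adjusted p = 0.871) and −0.08 (adjusted p = 0.791). Without vehicle replicate 3, TYK2 was at −0.51 and SHC1 at −0.58, both under the 1.5-fold limit, and the other 5 were called, GAB2 at −0.76 and STAT5A at −0.74. Against a 1.5-fold change as the null hypothesis, none of the 7 was called. No gene of this list was higher at an unadjusted p-value under 0.05, and DESeq2 and limma-voom called none higher.

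Of 10 negative regulators, 8 passed the filter, and 2 were called in each direction, or 25% against 12.0% higher and 14.9% lower over all tested genes. SOCS2, an inhibitor of cytokine receptors, rose by 0.79 on the log2 scale (SE 0.20, edgeR adjusted p = 0.0147), and PTPN2, a phosphatase of JAKs and STATs, by 0.74 (SE 0.16, adjusted p = 0.00706). PIAS3, an inhibitor of STAT3, was at −0.70 (SE 0.23, adjusted p = 0.0398), and DUSP22, a phosphatase, at −0.59 (SE 0.14, adjusted p = 0.0111). Without vehicle replicate 3 neither PIAS3 (−0.45) nor DUSP22 (−0.54) passed the 1.5-fold limit, while SOCS2 (0.86) and PTPN2 (0.60) were called. PTPN6 was under the filter at means of 0.178 and 0.674 CPM, with every treated library above every vehicle library.

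Of 30 genes known to respond to STAT3, 20 passed the filter, and 4 (20%) were called higher and 3 (15%) lower, beside 12.0% and 14.9% of all tested genes, with a median log2 fold change of 0.23. CCL2, a chemokine that attracts monocytes, held 2.60, 5.06, 3.07 and 4.33 CPM in the vehicle libraries and 12.5, 12.3, 13.0 and 12.7 CPM in the TP-472 libraries. These groups were far apart, and CCL2 rose by 1.75 on the log2 scale (SE 0.21, edgeR adjusted p = 0.000581). CCND1, the gene of cyclin D1, rose by 1.04 (SE 0.14, adjusted p = 0.00106), ICAM1, an adhesion receptor, by 0.73 (SE 0.20, adjusted p = 0.0216), and MCL1, a survival gene of the BCL-2 family, by 0.73 (SE 0.15, adjusted p = 0.00601). PIM1, a kinase gene, was lower by a log2 fold change of −1.14 (SE 0.20, adjusted p = 0.00336), CEBPD, a transcription factor gene, by −0.95 (SE 0.31, adjusted p = 0.0410) and FOSL2, of the AP-1 family, by −0.67 (SE 0.17, adjusted p = 0.0159).

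This list depended on vehicle replicate 3. Without it, 9 of the 20 were called higher and 1 lower. CCL2, CCND1, ICAM1 and MCL1 were then at log2 fold changes of 1.66, 1.19, 0.93 and 0.61 and PIM1 at −0.88, all called. CEBPB, FOS, JUNB, MYC and TIMP1, named because they changed their call, were then called higher at log2 fold changes of 0.87, 0.68, 0.67, 0.66 and 0.63 (edgeR adjusted p = 0.000147, 0.00740, 0.00159, 3.78e-05 and 5e-05), and of the lower genes PIM1 alone passed both limits. With all 8 libraries the adjusted p-values of these 5 genes ran from 0.0442 to 0.650. The other 10 genes of the list, among them the liver acute-phase genes CRP, SAA1, HP and FGB, did not exceed 0.370 CPM in any library.

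Of 17 genes that regulate IL6 or act on the decay of its mRNA, 14 passed the filter. By edgeR 2 were called higher (14.3%, against 12.0% of all tested genes). None was called lower by edgeR, DESeq2 or limma-voom, nor was any lower at an unadjusted p-value under 0.05. ATF3, a stress-induced transcription factor, held 6.71, 5.66, 7.35 and 7.28 CPM in the vehicle libraries and 21.7, 22.9, 20.1 and 19.6 CPM in the TP-472 libraries. It rose in all 4 treated libraries, by 1.64 on the log2 scale (SE 0.13, edgeR adjusted p = 8.38e-05). ZC3H12A, which encodes Regnase-1, a nuclease that degrades IL6 mRNA, rose by 0.87 (SE 0.29, edgeR adjusted p = 0.0445). Without vehicle replicate 3 it rose by 1.27 (edgeR adjusted p = 6.44e-05, from 4.62e-05 to 0.108 over the alternatives). ARID5A, of the same list, was not called with all libraries, at 0.63 (edgeR adjusted p = 0.12). Without vehicle replicate 3 it was called higher, at 0.98 (edgeR adjusted p = 0.00169), and the list then held 3 higher calls. The NF-kB genes RELA, REL and NFKB1 were not called, with log2 fold changes of −0.13, 0.01 and 0.23. IL1A, IL1B and TNF, cytokines that induce IL6 in many cells, were under the filter, and IL1A had means of 0.0848 and 0.430 CPM with no overlap of the groups.

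All 6 partners in the shedding and trafficking of the receptors passed the filter, with 2 called lower (33.3%, against 14.9% of all tested genes) and none higher by edgeR, DESeq2 or limma-voom, nor was any higher at an unadjusted p-value under 0.05. SORL1, a sorting receptor that binds IL-6 and its receptor, held 105, 93.0, 88.6 and 92.7 CPM in the vehicle libraries and 47.0, 44.9, 46.5 and 50.2 CPM in the TP-472 libraries. It fell by 1.01 on the log2 scale with no overlap (SE 0.10, edgeR adjusted p = 0.000201), and by 1.04 without vehicle replicate 3 (adjusted p = 3.57e-06). FURIN, a proprotein convertase, was called lower at means of 16.2 and 8.08 CPM (adjusted p = 0.0453), with a log2 fold change of −0.48 without vehicle replicate 3, under the 1.5-fold limit. ADAM10 and ADAM17, the proteases that shed the IL-6 receptor, were not called, at −0.36 and 0.28.

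**Figure D4:**
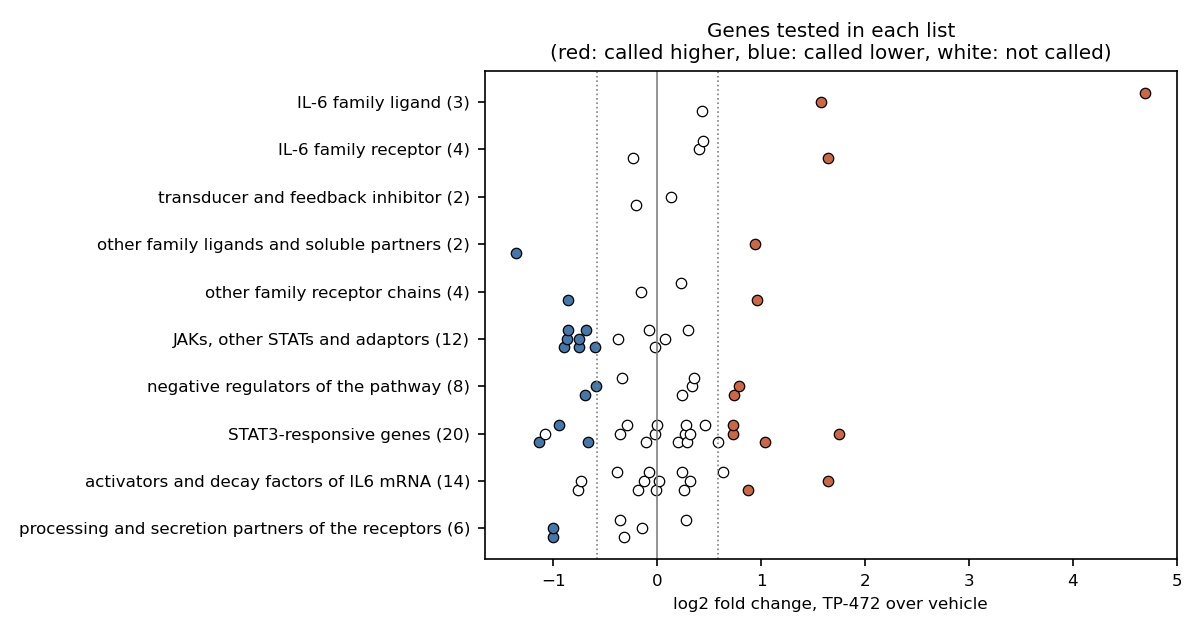
Log2 fold change, TP-472 over vehicle, of each tested gene in the family and in the 7 further lists, with the number tested in parentheses; red points were called higher, blue points lower and white points were not called, and dotted lines mark 1.5-fold. The list of JAKs, other STATs and adaptors holds 7 blue points and no red point.

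Genes of other cell types that make IL-6 family cytokines were read in the same libraries. Of 9 leukocyte markers 1 passed the filter, CD68, a lysosomal gene, at 7.53 and 10.4 CPM. PTPRC, which defines leukocytes, had no count in any library but TP-472 replicate 2 (0.0282 CPM), and CD3E and MS4A1 had none anywhere. CD14 and ITGAM, under the filter, had vehicle means of 0.584 and 0.688 CPM and TP-472 means of 0.889 and 1.24 CPM. For both, every TP-472 library lay above every vehicle library. The remaining leukocyte markers did not exceed 0.141 CPM in any library. The 6 endothelial markers were all under the filter. Their summed levels were 0.249, 0.287, 0.637 and 0.253 CPM in the vehicle libraries and 0.466, 0.874, 0.721 and 0.978 CPM in the TP-472 libraries. The medians of these sums were 0.270 and 0.798 CPM. The summed leukocyte markers were 7.79, 9.05, 9.32 and 9.16 CPM in the vehicle libraries and 14.8, 13.2, 11.5 and 11.5 CPM in the TP-472 libraries, mostly through CD68. Of 7 fibroblast markers, DCN and LUM did not exceed 0.0277 CPM, and COL1A2, the most abundant, fell from 589 to 98.8 CPM (log2 fold change −2.58, edgeR adjusted p = 1.74e-05). THY1 and PDGFRA, fibroblast markers that are not collagens, were not called, with means of 41.1 and 48.9 CPM for THY1 and 1.17 and 1.35 CPM for PDGFRA. The summed fibroblast markers had medians of 1074 and 305 CPM, the summed smooth muscle markers, led by CALD1, 480 and 375 CPM, and the summed epithelial markers 19.2 and 25.9 CPM. In the smooth muscle list DES, LMOD1 and TAGLN were called lower, at log2 fold changes of −2.36, −1.84 and −0.67 (edgeR adjusted p = 0.000189, 0.00401 and 0.00397). These were 42.9% of the 7 tested genes of that list, beside 14.9% of all tested genes. DES and LMOD1 exceeded 1 CPM only in vehicle libraries, through which alone they entered the test. MYH11, under the filter, had 0, 0, 0 and 1 counts in the vehicle libraries and 10, 8, 7 and 10 in the TP-472 libraries, with no overlap. Within the epithelial list KRT18 rose from 7.39 to 15.6 CPM (edgeR adjusted p = 0.000726) and KRT19 fell from 8.88 to 4.93 CPM (adjusted p = 0.0151), while EPCAM, under the filter, had means of 0.731 and 0.245 CPM with no overlap. The part of these shifts in the changes of the family was not tested.

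For each tested ligand the genes of at least 5 CPM with the most similar pattern were taken by Pearson correlation of log2 CPM over the 8 libraries, which share treatment groups and depth. For IL6 these were SMIM4 (r = 0.993), RAB39A (r = 0.992) and BMS1 (r = 0.991), and for LIF they included SNHG4 (r = 0.996) and PDCD11 (r = 0.996). All 5 were called higher, at log2 fold changes of 0.64 to 1.12. For CLCF1 they were SHB (r = 0.983), XRCC2 (r = 0.978) and CHST11 (r = 0.978), none of which was called.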

How the data were processed

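RNA of SK-UT-1 cells given TP-472 or vehicle was measured in 4 libraries each. The authors aligned reads to GRCh38 with STAR to assess quality, and obtained transcript estimates from salmon 1.4.0 (named in the submitters' processing notes), which tximport summed by gene. The deposited values are estimated counts, neither normalized nor filtered, with 13.8% to 23.2% of a library's values not whole. Here they were rounded, genes above 1 CPM in 4 or more libraries were kept (14073 of 60282), and groups were compared with edgeR 4.0.16 in R 4.3.3 (TMM scaling, quasi-likelihood F test, Benjamini-Hochberg adjustment over all genes tested, no covariate). Calls needed a change over 1.5-fold at an adjusted p under 0.05. Standard errors were taken from the F statistic. IL11 was given an exact permutation test.

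The family members and the lists were chosen with earlier results of these data known. The text names all members, up to 4 called genes of each list with the largest change in each direction, list genes under the filter where it counts them, and the 3 genes most correlated with each tested ligand. A few genes that enter the counts are left out of the text. Other genes (STAT5B, SHC1, SOS1, uncalled list genes, markers) were named after their values were seen. Positions, lengths and GC content come from GENCODE release 29 on GRCh38, matched by gene identifier without its version, and promoter sequences come from RefSeq.

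Alternatives were DESeq2 1.42.0, limma-voom (limma 3.58.1), robust estimation, other scalings and filters, unrounded counts, no fold limit, a test against 1.5-fold, GC correction, a replicate block, and leaving out each library. Ranges of single genes leave out the test against 1.5-fold. Fits without vehicle replicate 3, with GC correction or total-count scaling, were added once the data had been seen. The calculations were tested on simulated data. No 2 libraries were copies, since the mean chi-square between a pair was at least 12.8 (copies would give about 1). At these depths the replicate spread, not counting, limits precision for genes well over the filter. For IL6 and IL11, with few counts in each library, counting error is large.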

Additional observations from a re-analysis of the deposited data

Results flagged for a closer look

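Within groups of 4 libraries, single libraries far from the other 3 were sought by Dixon's criterion, which chance meets in about 1 in 20 groups. They were found in 41 of the 187 groups with unequal values, from 100 of the genes named in the text. Vehicle and TP-472 were taken separately. In 27 of the 41 the library was vehicle replicate 3, which stood apart across all genes. Among the family genes it held 6.75 CPM of CLCF1 (2.44 to 3.02 in the other vehicle libraries), 116 CPM of IL6ST (226 to 242) and 9.41 CPM of SOCS3 (6.18 to 6.38), and it held 4.17 CPM of AP003419.1, which had no count in the other vehicle libraries, and 20.7 CPM of RAD9A (10.9 to 11.5). Among the other pathway genes it was high for GAB2 (21.9 CPM), TYK2 (166 CPM), SHC1 (397 CPM), CNTFR (3.50 CPM), CCND1 (164.9 CPM), PIM1 (50.5 CPM), CEBPB (9.76 CPM), CEBPD (24.2 CPM), JUNB (71.5 CPM), MYC (282 CPM), ZC3H12A (7.01 CPM) and FURIN (31.0 CPM). It was low for PTPN2 (24.8 CPM), JAK1 (194.6 CPM), JAK2 (19.5 CPM), ADAM10 (129.5 CPM) and ADAM17 (52.0 CPM). Of the genes most similar to CLCF1 it was high for SHB (36.5 CPM), XRCC2 (78.1 CPM), CHST11 (13.98 CPM) and CCDC88C (20.8 CPM), and of the smooth muscle markers for SMTN (158 CPM).

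The largest of the remaining values was OSMR in TP-472 replicate 4, at 78.8 CPM, where the other TP-472 libraries held 55.2 to 55.9 CPM. That library held 42.7 CPM of THY1 (50.3 to 51.9 in the others). TP-472 replicate 1 held 1.58 CPM of PDGFRA, and vehicle replicate 1 held 6.68 CPM of CD68 and 27.2 CPM of TAGLN. The others were genes near 0, where a few counts decide: CRP and DCN at 0.0259 CPM in TP-472 replicate 1, FGB and MYH11 at 0.0281 CPM in vehicle replicate 4, TNF and LUM at 0.0277 CPM in vehicle replicate 1, PTPRC at 0.0282 CPM in TP-472 replicate 2, and ACTG2 at 0 CPM in vehicle replicate 1 and 0.132 CPM in TP-472 replicate 4. The part of gene GC content in these values was not tested gene by gene.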

How the results depend on the processing

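IL6, LIF and IL6R were called higher in every fit that tested them, and no member was called lower in any. A filter of 5 CPM removed IL6, CLCF1 and IL11, leaving 2 members called higher. CLCF1 was called at log2 fold changes of 0.75 with GC correction, 0.94 without vehicle replicate 3 with GC correction, and 0.87 without it with total-count scaling, and leaving out each library moved it from 0.27 to 0.87. Over all genes there were 1693 higher and 2096 lower calls. DESeq2 gave 2695 higher over 23270 genes, and a test against 1.5-fold gave 1123 calls, 529 higher and 594 lower. Leaving out each library gave 2690 (without TP-472 replicate 3) to 4223 calls (without vehicle replicate 2), with 1387 to 2399 lower. The 7 further lists held 10 higher and 16 lower calls. These became 6 higher with a filter of 5 CPM, 3 higher and 3 lower against 1.5-fold, 9 lower with GC correction, 7 to 16 higher and 9 to 16 lower over the left-out libraries, 9 lower without vehicle replicate 3 with GC correction, and 16 higher and 10 lower without it with total-count scaling. The cause was not tested. No scaling moved the median of all genes by over 0.1 on the log2 scale.

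The replicate numbers are shared by the groups, but same-numbered libraries did not deviate together (correlations −0.06, 0.12, −0.17 and −0.18), so they were not treated as pairs. With a replicate block there were 3055 calls, and IL6, LIF and IL6R were called (edgeR adjusted p = 0.0043, 0.00342 and 0.00508). Not every library correlated best with its own number.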

Other observations

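By Spearman correlation, other genes led for each ligand, and 8 libraries give few distinct ranks. For IL6, 12 genes had a correlation of 1, SCML1, CBFB and KPNB1 among them, and none of these 3 was called. For LIF, IFFO2 was the only gene with a correlation of 1 and was called higher, from 34.1 to 71.7 CPM. For CLCF1, 8 genes had a correlation of 1, among them CCDC88C, ADD2 and NOMO1, which were not called.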
